A study of Mus musculus with 6 samples.

Results

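The 8 chemokine receptor genes Ccr1, Ccr2, Ccr7, Ccr9, Cx3cr1, Cxcr3, Cxcr4 and Xcr1 were followed in bone marrow cultures that had or had not received midkine. They were chosen by name as receptors of dendritic cell subsets, and all 8 were found among the 14912 genes of the table. They and the gene lists below were chosen with earlier results of these data known. Their shares beside those of all genes are therefore descriptive. RNA came from wild-type C57BL/6J bone marrow grown with FLT3 ligand (FLT3LG), a cytokine on which dendritic cell precursors depend, at a dose of 50 ng/ml, with fresh medium on day 7. The 3 midkine samples received human recombinant midkine, a secreted protein that binds heparin, at a dose of 10 ng/ml during the last 2 days, and the 3 control samples did not. The labels name no sort of the cells and do not say whether replicates were separate mice or cultures, and the p-values below then reflect only how these samples spread, possibly for technical reasons.

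Chemokine receptors are G protein-coupled receptors with 7 membrane-spanning segments that steer leukocytes along gradients of small secreted proteins, the chemokines. Dendritic cell subsets carry different sets of them. Plasmacytoid dendritic cells, which release large amounts of type I interferon, use Ccr9 and Cxcr3. Type 1 conventional dendritic cells, which present antigen to CD8 T cells, carry Xcr1, and maturing dendritic cells switch on Ccr7 to reach lymph nodes.

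The recovered reads came to 5089338 to 5532055 per control library and 5685055 to 6453768 per midkine library. Mitochondrial ribosomal RNA took 9.33% to 9.86% of the reads in control and 18.1% to 20.9% in midkine libraries. Of the genes that define dendritic cells, Itgax, which encodes CD11c, was at 417 ± 28.0 normalised read counts in control and 743 ± 46.4 in midkine libraries (mean ± SD, n = 3 each), and Zbtb46, a transcription factor of conventional dendritic cells, at 792 ± 12.4 and 570 ± 6.82. The cultures were mixed: the summed level of 8 stromal markers was 12637 to 15745 in control and 35454 to 38289 in midkine libraries. Markers of T and NK cells, mast cells and red cells were near 0, with summed levels of at most 35.9, 11.2 and 7.33. Of the 11 T and NK cell markers, 7, among them Cd3e and Ncr1, were not found in the table.

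With midkine, 3 of the 8 receptors fell, 2 rose and 3 were not called, at an adjusted p threshold of 0.05 in limma. Over all 11844 genes tested, 42.7% were called, 21.8% as lower and 20.9% as higher. All 5 called receptors changed at least 2-fold, as did 10.1% of all genes tested, 6.22% upward and 3.84% downward. In the same 5 receptors the control and midkine groups did not overlap, against 51.3% of all genes tested. The median log2 fold change was 0.0095 over the 8 receptors and -0.0087 over all genes tested. In these bulk samples, fewer cells of a type and less RNA per cell cannot be told apart.

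**Figure D1:**
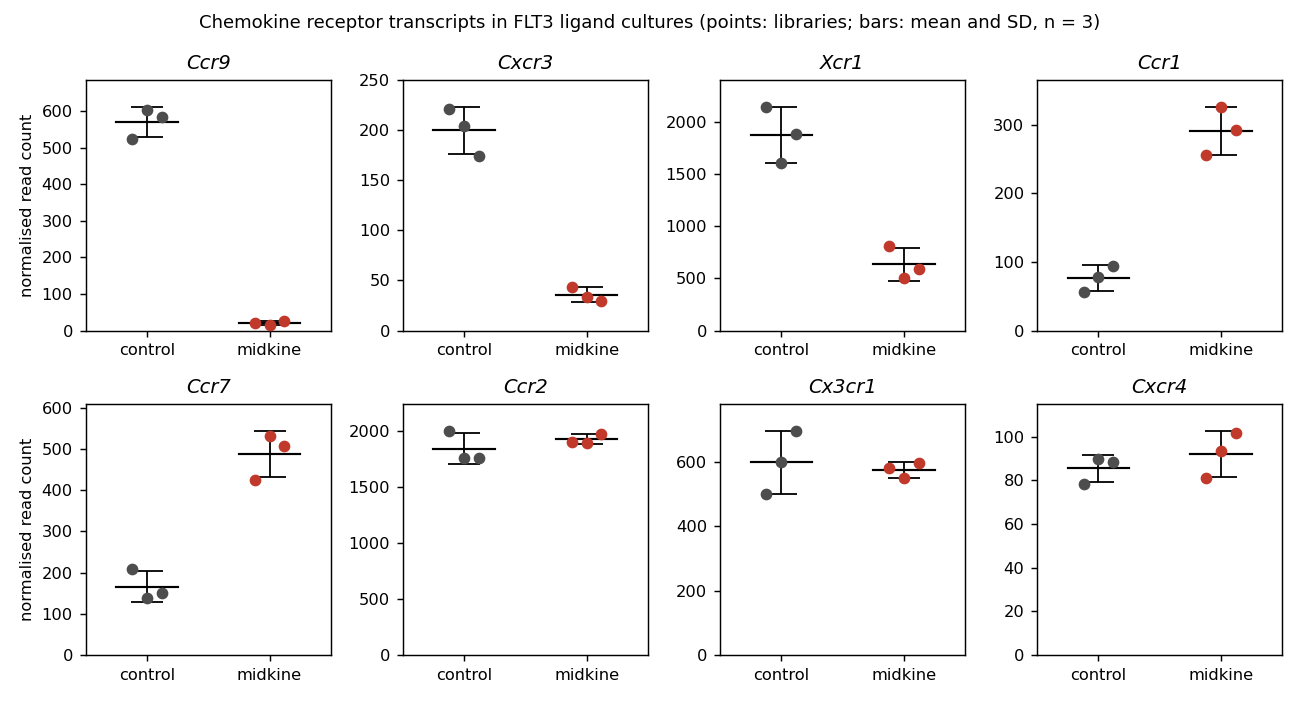
Normalised read counts of the 8 receptors (y axis, from 0) in 3 control and 3 midkine libraries, with 1 panel per gene; points are libraries, lines and bars the mean and SD. Ccr9, Cxcr3 and Xcr1 lie lower and Ccr1 and Ccr7 higher in all 3 midkine libraries, and the groups overlap for Ccr2, Cx3cr1 and Cxcr4.

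The promoters of 3 receptors are shown first, those of the receptors with the deepest falls and the largest rise. They are the RefSeq windows on GRCm38.p6 from 250 bases before to 50 bases after the annotated start, 5′ to 3′ on the gene's strand. Ccr9 is at chr9:123766961-123767260 on the plus strand, Cxcr3 at chrX:101734098-101734397 on the minus strand and Ccr1 at chr9:123968643-123968942 on the minus strand. Capitals mark the letters CAGGTG, the E-box form bound by E proteins such as Tcf4, or its complement CACCTG, and in Ccr1 a match to the NF-kB consensus.
Ccr9: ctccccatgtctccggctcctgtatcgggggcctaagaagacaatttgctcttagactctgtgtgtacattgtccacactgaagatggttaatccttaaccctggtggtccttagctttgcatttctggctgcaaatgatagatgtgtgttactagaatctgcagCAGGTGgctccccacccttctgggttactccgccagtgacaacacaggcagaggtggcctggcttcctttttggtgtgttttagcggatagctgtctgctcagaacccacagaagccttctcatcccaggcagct
Cxcr3: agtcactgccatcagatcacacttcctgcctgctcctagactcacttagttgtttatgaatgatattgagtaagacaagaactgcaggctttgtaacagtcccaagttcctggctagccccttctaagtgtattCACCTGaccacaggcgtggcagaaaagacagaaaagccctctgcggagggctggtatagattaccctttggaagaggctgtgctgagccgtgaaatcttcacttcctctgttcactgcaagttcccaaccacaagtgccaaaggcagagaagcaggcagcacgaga
Ccr1: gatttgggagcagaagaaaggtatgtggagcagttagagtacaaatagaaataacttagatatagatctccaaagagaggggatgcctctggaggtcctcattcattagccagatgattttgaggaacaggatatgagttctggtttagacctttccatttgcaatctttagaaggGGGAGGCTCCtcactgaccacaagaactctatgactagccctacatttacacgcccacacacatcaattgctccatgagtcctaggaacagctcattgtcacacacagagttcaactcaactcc
The CAGGTG match lay 85 bases before the start in Ccr9 and 116 bases before it in Cxcr3. Promoters of 7 of the 8 receptors were found in the table, all but that of Ccr7, and only these 2 of the 7 held CAGGTG on either strand, as did 20.3% of 32544 distinct promoter windows. The NF-kB match began 74 bases before the start of Ccr1, was the only one among the 7, and the consensus occurred in 8.49% of all windows. A match is a run of letters and says nothing on whether a factor is bound. Of the other motifs searched on both strands, the general E-box CANNTG, which includes CAGGTG, was in 6 of the 7 windows and 72.3% of all windows, the ETS core GAGGAA in 2 and 28.1%, and the RUNX motif TGTGGT in 3 and 16.7%. The AP-1 motif TGANTCA (7.79% of all windows), the STAT motif TTCNNNGAA (8.33%), the interferon response motif of GAAA, any 2 bases and GAAA (3.45%), and the ETS-IRF motif of GGAA, any 2 bases and GAAA (2.73%), were in none of the 7.

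Ccr9, the receptor for the thymic and intestinal chemokine Ccl25, fell furthest of the 8. Its normalised read count was 524, 605 and 585 in control replicates 1 to 3, and 20.3, 15.6 and 25.2 in midkine replicates 1 to 3. Every midkine library was far below every control library, and the midkine values rested on 60 recovered reads in all against 1764. The mean went from 571 ± 41.8 to 20.4 ± 4.82 (n = 3 each), a log2 fold change of -4.77 with a 95% interval of -5.08 to -4.45 (27.2-fold lower on the log2(value + 1) scale, limma adjusted p = 7.1e-18). That was the lowest log2 fold change of the 11844 genes tested. Over 18 other ways of processing the data Ccr9 ranked 1 in 13 and no lower than 5 in the others. Ccr9 spans 123678439 to 123784330 on chromosome 9 of GRCm38, plus strand, and its annotated exons overlap those of Slc6a20a and AC165425.1 on the other strand and of Gm17200 on the same strand, none of which has a row of its own in the table. The RefSeq start used for the promoter lies inside this span.

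Cxcr3, the receptor for the interferon-induced chemokines Cxcl9, Cxcl10 and Cxcl11, fell next. It was at 221, 204 and 174 normalised read counts in control replicates 1 to 3 and at 43.9, 33.9 and 29.3 in midkine replicates 1 to 3. The midkine values were all below the lowest control value. The log2 fold change was -2.46 (95% interval -2.80 to -2.13, 5.52-fold lower, limma adjusted p = 5.5e-12). Cxcr3 lies on the X chromosome from 101731535 to 101734269, minus strand, and shares no exon sequence with another annotated gene.

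Xcr1, the receptor for lymphotactin and a defining gene of type 1 conventional dendritic cells, fell by less. Its control values were 2143, 1602 and 1882 and its midkine values 814, 502 and 589 normalised read counts in replicates 1 to 3. The highest midkine library reached 814 and the lowest control library 1602, so the groups were apart although both were spread. The log2 fold change was -1.58 (95% interval -1.83 to -1.33, 2.99-fold lower, limma adjusted p = 8.5e-11). Xcr1 lies on chromosome 9 from 123852315 to 123862029, minus strand.

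The fallen receptors were compared with each other within libraries, a comparison chosen after the values were seen. The ratio of Ccr9 to Cxcr3 was 2.37, 2.96 and 3.36 in control replicates 1 to 3 and 0.462, 0.459 and 0.862 in midkine replicates 1 to 3. The log2 ratio changed by -2.34 for Ccr9 to Cxcr3, by -3.25 for Ccr9 to Xcr1 and by -0.92 for Cxcr3 to Xcr1, with groups that did not overlap. Each had an exact two-sided permutation p = 0.1, the smallest that 3 against 3 samples can give, and an adjusted p of 0.133 over the 4 pairs compared.

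The receptors were then read against the other markers of the cells that carry them. Of 14 tested plasmacytoid markers other than Ccr9 and Cxcr3, 12 fell, none rose and 2 were not called, with a median log2 fold change of -1.80. Over all genes tested 21.8% were lower. Atp1b1, which encodes a subunit of the sodium pump, fell by 3.70 on the log2 scale, Ly6d, a surface protein gene, by 2.69 and Siglech, a lectin gene of plasmacytoid cells, by 3.00. The log2 fold change of Ccr9 lay below that of all 14 markers, whose lowest was -4.47 for Upb1, and that of Cxcr3 lay below 9 and above 5. The summed level of these markers was 7613 to 7998 in control and 2296 to 2458 in midkine libraries.

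Ccr9 was also lower per summed plasmacytoid marker level. Tcf4 made up 30.9% of that sum over the 6 libraries, and Cox6a2 and Il3ra, also in it, were not called. Ccr9 stood at 6.55%, 7.62% and 7.68% of that sum in control replicates 1 to 3 and at 0.866%, 0.679% and 1.03% in midkine replicates 1 to 3. All midkine values were below all control values, with a difference of -3.10 on the log2 scale. Cxcr3 went from 2.54% ± 0.240 to 1.51% ± 0.345 (n = 3 each), a difference of -0.77, again with no overlap. The exact permutation p was 0.1 for each, the smallest possible, and stayed 0.1 adjusted over 6 such ratios. Without Tcf4 in the sum the differences were -3.02 for Ccr9 and -0.69 for Cxcr3 (exact permutation p = 0.1 each). Against the geometric mean of the markers they were -2.72 for Ccr9 (exact permutation p = 0.1) and -0.42 for Cxcr3 (exact permutation p = 0.2). The fall of Cxcr3 beyond these markers thus depended on how they were combined. The size of the Ccr9 difference depends on the markers too, since they fell unequally. Log2 fold changes were -4.47 for Upb1 (653 control and 27 midkine reads) and -3.86 for Pacsin1, nearer to Ccr9 at -4.77. The more abundant Tcf4 and Bst2 were at -1.56 and -1.08. Ratios to single markers were not tested.

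Xcr1 showed the same order beside the type 1 markers. Of 14 tested type 1 markers other than Xcr1, 11 fell and 1 rose, with a median log2 fold change of -0.85, against 21.8% lower and 20.9% higher over all genes. Naaa, a lysosomal amidase gene, fell by 1.79, the nucleic acid sensor gene Tlr3 by 1.30 and Ifi205, which has close relatives in the genome that could share its reads, by 1.19, while Itgae, which encodes the integrin CD103, rose by 1.51. Xcr1 had a lower log2 fold change than 13 of the 14, all but Naaa. It stood at 5.23% ± 0.414 of the summed type 1 markers in control and at 2.99% ± 0.580 in midkine libraries (n = 3 each), a log2 difference of -0.82 with groups that did not overlap (exact permutation p = 0.1). Irf8 made up 37.9% of that sum over the 6 libraries. Rab7b and Xlr, also in it, were not called, and Rab7b was abundant, at 4458 ± 41.7 in control and 4628 ± 303 in midkine libraries (n = 3 each). The ratio without Rab7b was not tested. Beside the falls described above, the summed stromal markers and the mitochondrial ribosomal RNA share were higher with midkine, and their part in the result was not tested.

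**Figure D2:**
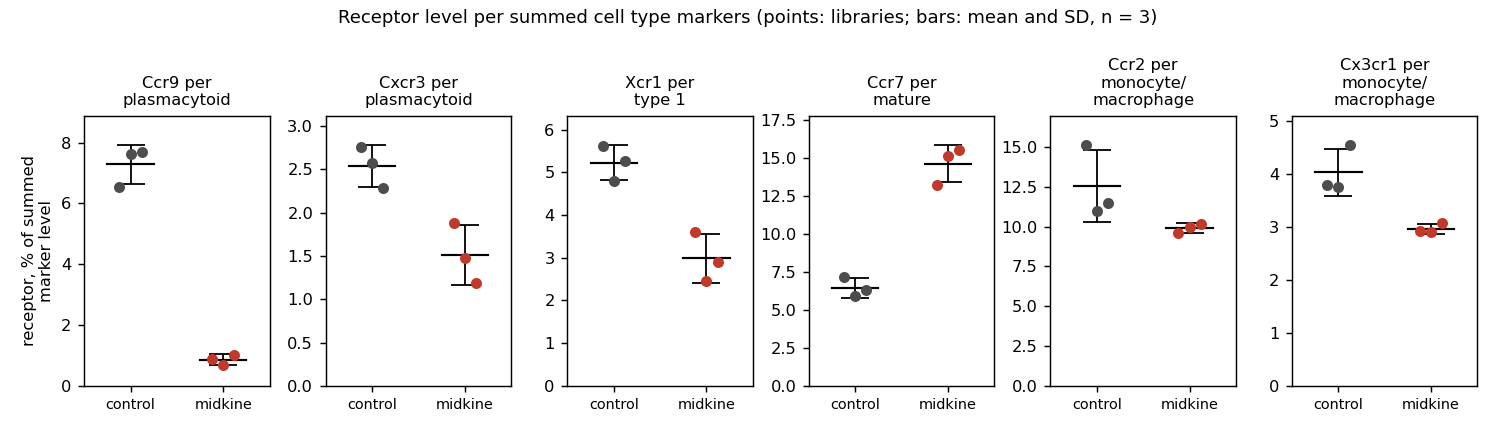
Each receptor as a percentage of the summed normalised read counts of a fixed marker list (y axis, from 0) in 3 control and 3 midkine libraries; points are libraries, lines and bars the mean and SD. Ccr9 drops from 7.29% to 0.857% of the plasmacytoid sum and Ccr7 goes from 6.44% to 14.6% of the mature sum.

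Ccr1 and Ccr7 were the receptors that rose. Ccr1, a receptor of monocytes, neutrophils and immature dendritic cells for Ccl3 and Ccl5, was at 56.7, 77.4 and 94.8 normalised read counts in control replicates 1 to 3 and at 256, 326 and 293 in midkine replicates 1 to 3. All midkine libraries were above the highest control library. The log2 fold change was 1.94 (95% interval 1.63 to 2.25, 3.85-fold higher, limma adjusted p = 1.0e-10). Ccr1 lies on chromosome 9 from 123962124 to 123968692, minus strand.

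Ccr7, the receptor for Ccl19 and Ccl21, was at 209, 138 and 151 normalised read counts in control replicates 1 to 3 and at 426, 532 and 507 in midkine replicates 1 to 3. The lowest midkine value was above the highest control value. The log2 fold change was 1.57 (95% interval 1.31 to 1.83, 2.97-fold higher, limma adjusted p = 2.2e-10), and Ccr7 lies on chromosome 11 from 99144196 to 99155077, minus strand. The ratio of Ccr1 to Ccr7 was 0.271, 0.561 and 0.628 in control and 0.601, 0.613 and 0.577 in midkine replicates 1 to 3. These groups overlapped and the log2 ratio differed by 0.38 (exact permutation p = 0.5, adjusted p = 0.5 over the 4 pairs).

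Ccr7 had a larger log2 fold change than each of 13 tested markers of mature dendritic cells. Of those 13, 8 rose, 2 fell and 3 were not called, with a median of 0.59, against 20.9% higher and 21.8% lower over all genes. Cd83, a surface marker of maturation, rose by 0.79, Cacnb3, a calcium channel subunit gene, by 1.14 and Il4i1, an amino acid oxidase gene, by 0.95, while Apol7c fell by 2.30 and Marcksl1 by 1.15. Ccr7 stood at 7.15%, 5.91% and 6.27% of the summed mature markers in control replicates 1 to 3 and at 13.2%, 15.2% and 15.5% in midkine replicates 1 to 3. The groups did not overlap, with a log2 difference of 1.18 (exact permutation p = 0.1, the smallest possible). Tmem123 made up 42.3% of the summed mature markers over the 6 libraries. The summed level of 10 neutrophil markers was 544 to 677 in control and 65.1 to 93.5 in midkine libraries, most of it from S100a8 and S100a9 in control. Of the 4 tested, S100a8, S100a9 and Ngp fell and Mpo was not called, and Csf3r, too low to test, had 15 control and 41 midkine reads. Their part in the rise of Ccr1 was not tested. The stromal sum and the mitochondrial ribosomal RNA share were higher beside both rises, and their part in them was not tested.

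Ccr2, Cx3cr1 and Cxcr4 were not called. Ccr2, the receptor that brings monocytes out of the bone marrow, was at 1998, 1760 and 1758 normalised read counts in control replicates 1 to 3 and at 1903, 1891 and 1973 in midkine replicates 1 to 3. Its groups overlapped, and the 95% interval of the log2 fold change was -0.09 to 0.22 (limma adjusted p = 0.510). Cx3cr1, the receptor for fractalkine on monocytes, macrophages and some dendritic cell precursors, was at 502, 601 and 696 in control and at 580, 549 and 596 in midkine replicates 1 to 3. The midkine values lay within the control range, and the interval was -0.25 to 0.16 (limma adjusted p = 0.732). Cxcr4, the receptor for Cxcl12 that holds cells in the marrow, was at 78.4, 89.6 and 88.6 in control and at 81.1, 93.5 and 101.9 in midkine replicates 1 to 3, with an interval of -0.20 to 0.41 (limma adjusted p = 0.609). The groups overlapped for Cxcr4 too, and its interval was the widest of these 3. Ccr2 lies on chromosome 9 from 124101950 to 124113557, plus strand, and Cxcr4 on chromosome 1 from 128588199 to 128592293, minus strand. Cx3cr1 lies on chromosome 9 from 119901616 to 120069879, minus strand, and its exons overlap those of Gm33858 on the other strand, so their reads cannot be told apart where the counting ignored strand.

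The direction of Ccr2 and Cxcr4 and the call of Cx3cr1 depended on the scaling between libraries. Scaled to total counts, which moved the median of all genes to -0.26, the log2 fold change was -0.19 for Ccr2 and -0.15 for Cxcr4, neither called, and -0.31 for Cx3cr1, which was called lower (limma adjusted p = 0.0161), where 40.7% of all genes were called lower. Without control replicate 3 the log2 fold change of Cx3cr1 was 0.066, also not called. Relative to that median the values were 0.07, 0.11 and -0.04. The 5 other receptors kept their direction and their call in all 18 alternatives, in which 34.5% to 51.5% of all tested genes were called.

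Markers of monocytes and macrophages went both ways, with 6 of 16 higher and 5 lower and a median log2 fold change of 0.05. Over all genes tested 20.9% were higher and 21.8% lower. Fn1, the fibronectin gene, rose by 1.10 and Cd68, a lysosomal protein gene, by 0.61, while Ly6c2, a surface marker of inflammatory monocytes, fell by 4.28 and the complement genes C1qa and C1qc by 1.21 and 0.75. Ccr2 stood at 12.5% ± 2.26 of the summed level of these markers in control and 9.92% ± 0.297 in midkine libraries, and Cx3cr1 at 4.03% ± 0.449 and 2.97% ± 0.0935 (n = 3 each). Both differences, -0.32 and -0.44 on the log2 scale, had groups that did not overlap and an exact permutation p = 0.1. Lyz2 made up 38.1% of the marker sum over the 6 libraries. That sum was 13206 to 16033 in control and 18920 to 19838 in midkine libraries. Within it, mean Fn1 went from 2879 to 6147 normalised read counts and mean Lyz2 from 5963 to 7076 (n = 3 each). Much of the rise of the sum was thus Fn1, and the ratios without Fn1 were not tested. Taking the geometric mean of the markers in place of their sum turned the direction, to 0.30 for Ccr2 and 0.19 for Cx3cr1 (exact permutation p = 0.3 each). Without control replicate 1 the difference for Ccr2 was -0.18.

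**Figure D3:**
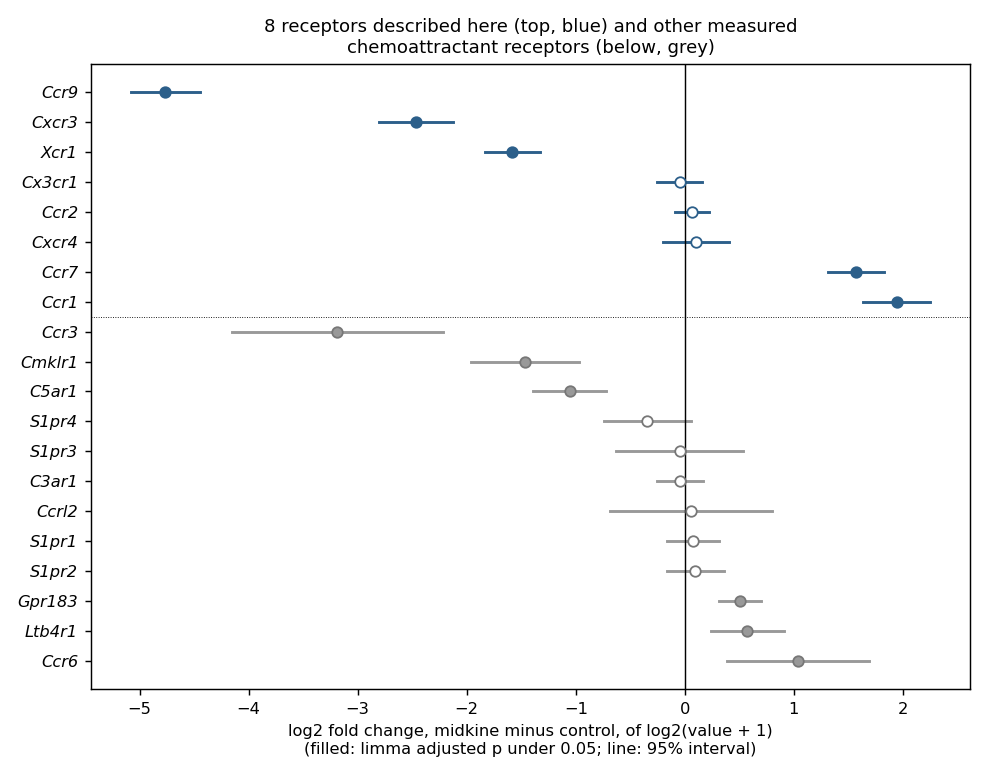
Log2 fold change of log2(value + 1), midkine minus control (x axis), with its 95% interval for the 8 receptors (top) and 12 other tested chemoattractant receptors (below); filled points have a limma adjusted p under 0.05. Of the 8, Ccr9 stands farthest left at -4.77 and Ccr1 farthest right at 1.94.

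Of 10 other chemokine receptors examined 6 were in the table and 2 reached the mean value of 10 needed for a test. Ccr3, best known from eosinophils, was at 20.8, 21.5 and 17.7 normalised read counts in control and at 1.13, 1.83 and 1.01 in midkine replicates 1 to 3, and fell (log2 fold change -3.19, limma adjusted p = 4.7e-06). It rested on 62 control and 4 midkine reads. Ccr6, the receptor for Ccl20, rose from 10.96 ± 2.78 to 23.6 ± 5.56 (n = 3 each; log2 fold change 1.04, limma adjusted p = 0.0103).

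The rise of Ccr6 was less stable than those of Ccr1 and Ccr7. Ccr6 lost its call without midkine replicate 1, was left out of the test by a minimum mean of 30, and had adjusted p-values between 0.00689 and 0.0584 over the alternatives that tested it. Ccr10 (9 control and 0 midkine reads), Cxcr2 (12 and 5), Cxcr5 (2 and 2) and Cxcr6 (6 and 8) were too low to test. The atypical receptor Ccrl2 was at 11.9 ± 1.36 and 12.9 ± 4.40 (n = 3 each) and was not called.

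Of 9 tested receptors for other attractants, 2 rose, 2 fell and 5 were not called, shares close to the 20.9% higher and 21.8% lower over all genes, with a median log2 fold change of -0.05. Cmklr1, the chemerin receptor gene, fell by 1.47 and C5ar1, the receptor gene for complement C5a, by 1.06. Gpr183, an oxysterol receptor gene that positions dendritic cells in the spleen, rose by 0.51, and Ltb4r1, a leukotriene B4 receptor gene, by 0.57, though Ltb4r1 was not called when libraries were scaled to total counts. The sphingosine 1-phosphate receptors S1pr1 (0.07), S1pr2 (0.09), S1pr3 (-0.05) and S1pr4 (-0.34) were not called.

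Several of the receptors are neighbours on chromosome 9. From Ccr9 to Ccr2 the annotation lists 9 protein-coding genes over 435.1 kb, of which Ccr1l1 was not found in the table and Cxcr6 was too low to test. The 7 tested genes did not share a direction: Ccr9, Lztfl1, Xcr1 and Ccr3 fell, Fyco1 and Ccr1 rose, and Ccr2 was not called. Ccr1, which rose by 1.94 on the log2 scale, lies between Xcr1 (-1.58) and Ccr3 (-3.19). Lztfl1, a ciliary trafficking gene within the annotated span of Ccr9 and on the other strand, was at 199, 221 and 195 normalised read counts in control and at 100.3, 98.97 and 100.9 in midkine replicates 1 to 3 (log2 fold change -1.03, limma adjusted p = 1.4e-07).

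**Figure D4:**
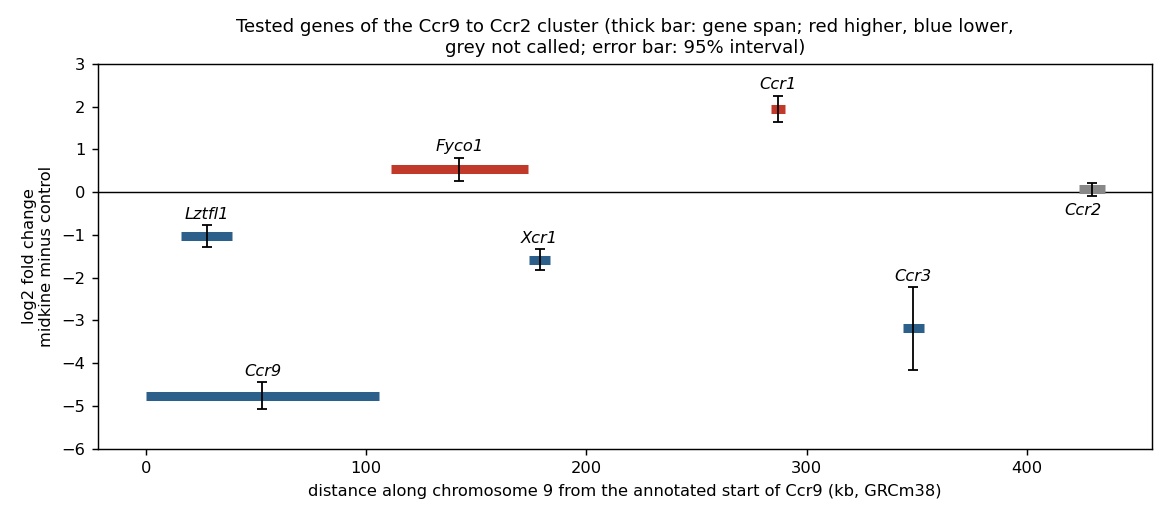
Log2 fold change, midkine minus control (y axis), of the 7 tested genes against their distance from the annotated start of Ccr9 on chromosome 9 (x axis, kb); thick bars are gene spans and error bars 95% intervals. Genes that fell (blue) and rose (red) are interspersed, with Ccr1 between Xcr1 and Ccr3.

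Ligands of the 8 receptors were also transcribed in the cultures. Of 16 ligands 13 were in the table and 11 were tested, of which 4 rose, 3 fell and 4 were not called, with a median log2 fold change of -0.08. Over all genes tested 20.9% were higher and 21.8% lower. Among ligands of Ccr1, Ccl3 was at 36.8, 27.1 and 36.5 normalised read counts in control and at 87.9, 122.8 and 112 in midkine replicates 1 to 3, and rose by 1.66 on the log2 scale (limma adjusted p = 5.9e-08). Ccl5 rose by 0.85 and Ccl6 by 0.31, while Ccl9 (0.01) and Ccl7 (-0.08) were not called. Ccl6 was not called when libraries were scaled to total counts, which leaves Ccl3 and Ccl5 as the ligands of Ccr1 that rose in all 18 alternatives.

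For the other receptors, ligand and receptor did not follow a common direction. Cxcl9, an interferon-induced ligand of Cxcr3, was at 48.2, 36.4 and 29.2 in control and at 11.3, 5.50 and 10.1 in midkine replicates 1 to 3, and fell with its receptor (log2 fold change -1.99). Cxcl10 had a log2 fold change of -0.39 and was not called. Cx3cl1, which encodes fractalkine, rose from 27.5 ± 2.20 to 67.2 ± 6.15 (n = 3 each; log2 fold change 1.26), whereas its receptor Cx3cr1 was not called. Cxcl12, a ligand made by stromal cells, fell from 1376 ± 102.9 to 857 ± 46.8 (n = 3 each; log2 fold change -0.68), whereas Cxcr4 was not called. Of the 8 stromal markers 7 rose and Pdgfra (0.43) was not called, against 20.9% higher over all genes.

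Among ligands of Ccr2, Ccl2 had a log2 fold change of -0.70 with overlapping groups (limma adjusted p = 0.022). It was not called by DESeq2, with no variance trend, without control replicate 2 or without midkine replicate 1, with adjusted p-values between 0.00327 and 0.189 over the 18 alternatives. Ccl12 had 10 control reads and 0 midkine reads. Ccl25, the ligand of Ccr9, was not called (log2 fold change -0.17).

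**Figure D5:**
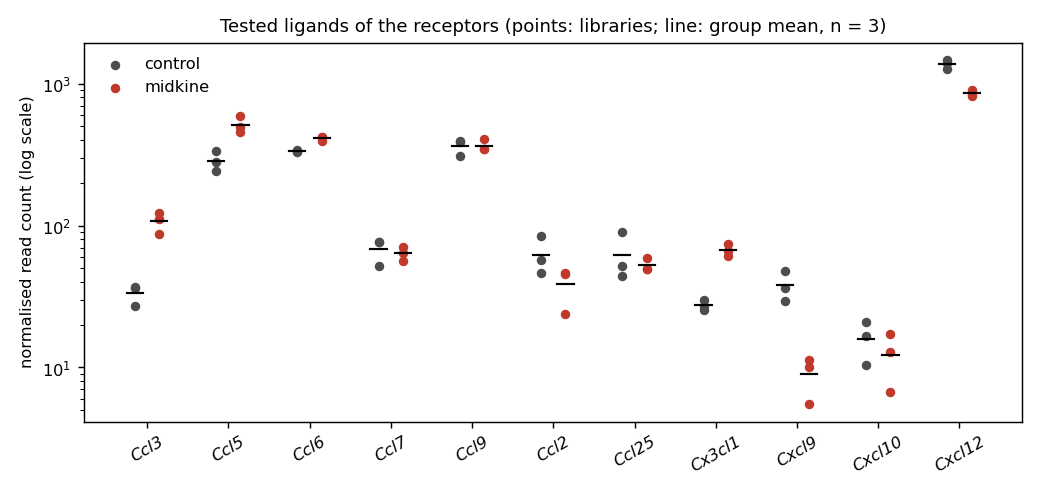
Normalised read counts (y axis, log scale) of the 11 tested ligands in 3 control (grey) and 3 midkine (red) libraries; points are libraries and short lines group means. Ccl3, Ccl5, Ccl6 and Cx3cl1 lie higher and Cxcl9 and Cxcl12 lower with midkine, with no overlap.

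Genes that carry the signal from these receptors to the cytoskeleton fell more often than they rose. Of 15 tested, 10 fell, 1 rose and 4 were not called, with a median log2 fold change of -0.29, against 21.8% lower over all genes. Over the 18 alternatives the number lower ran from 7, with no variance trend, to 11, with total-count scaling. Gnai3 and Rac1 were called lower in only 11 and 13 of the 18. Gnb2, a G protein beta subunit gene, fell by 0.62, Dock2, the exchange factor that activates Rac in migrating leukocytes, by 0.49, Was, an actin regulator gene, by 0.50, and Pik3cg, the kinase gene activated by G protein beta-gamma subunits, by 0.65. Gng5, a gamma subunit gene, rose by 0.50. Gng5 was not called when libraries were scaled to total counts. Beside these falls the summed stromal markers were at 12637 to 15745 in control and 35454 to 38289 in midkine libraries, and mitochondrial ribosomal RNA at 9.33% to 9.86% and 18.1% to 20.9% of reads; their part in the result was not tested.

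Of 15 genes that end the signal, 3 were higher, 3 lower and 9 not called, at a median of 0.07, shares close to the 20.9% and 21.8% over all genes. Rgs1, which encodes a regulator that shortens G protein signals, rose from 151 ± 19.8 to 377 ± 9.70 normalised read counts (n = 3 each; log2 fold change 1.32), and Rgs16 and Rgs3 of the same family rose by 1.10 and 0.52. Rgs18 fell from 380 ± 14.1 to 134 ± 14.0 (n = 3 each; log2 fold change -1.51), Rgs2 by 0.69 and Rgs19 by 0.45. The arrestin genes Arrb1 (0.14) and Arrb2 (0.0003) and the receptor kinase genes Grk2 (-0.13) and Grk3 (-0.17) were not called. With total-count scaling 7 of the 15 were lower and Rgs3 was not called.

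The genes most like Ccr9 over the 6 libraries were Nedd8, a ubiquitin-like modifier gene (Pearson r 0.999), and the plasmacytoid markers Atp1b1 (0.999) and Lair1 (0.998). Those most like Ccr1 were the glucose transporter gene Slc2a1 (0.999), Blvrb (0.998), which encodes biliverdin reductase B, and Asns (0.998), which encodes asparagine synthetase. The 6 libraries fall into 2 treatment groups, so much of a high r comes from the difference between the groups. Of 10862 genes compared, 845 had an r of at least 0.95 with Ccr9 and 798 with Ccr1.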

How the data were processed

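RNA from 3 control and 3 midkine samples was sequenced with a 3' end kit (QuantSeq), per the labels. The RNA integrity number is given only as a mean of 8 with a range of 5 to 10, not per sample. Whether RNA quality differed between the groups is therefore not known. Per the submitters' processing notes, TopHat2 2.0.10 and Bowtie 1.0.0 were used, along with HTSeq, DESeq2, SAMtools 0.1.19 and FastQC 0.11.0, and the builds named are GRCm38 and mm10. How counting treated strand, and its annotation, is not given in the sources used here. What the authors deposited is a signal table in which each library's read counts are divided by its size factor. Every value (100%) was a whole multiple of the value of 1 read within 1e-06 reads, which gave back the reads.

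Genes whose mean normalised value reached 10 were tested with limma 3.58.1 (variance trend, R 4.3.3) on log2(value + 1), and p-values were adjusted by Benjamini-Hochberg over 11844 genes. Fold changes on this scale understate changes of low genes. Receptors per marker sum used exact two-sided permutation tests. edgeR 4.0.16 and DESeq2 1.42.0 on recovered reads, other pseudocounts, filters and scalings, a replicate block and leaving out each library were alternatives. Each library counted as 1 replicate. Replicates differed by more than sampling noise (chi-square per degree of freedom 2.42 to 11.7), which does not show whether they were separate mice or cultures. Groups came from the sample titles. The members and lists were chosen with earlier results of these data known. Named genes were all 8 receptors, up to 4 called genes per direction with the smallest p in each signalling, ligand and other receptor list, all measured other chemokine receptors, up to 3 called genes per direction in each marker list, and the 3 genes most correlated with the most raised and most lowered receptor. Other names, such as uncalled ligands, were chosen after their values were seen. Some genes that these rules select are left out of the text, among them all markers of type 2 dendritic cells and B cells. Of 14 tested type 2 markers 7 were higher and 5 lower, with a median log2 fold change of 0.30. Of 4 tested B cell markers 0 were higher and 2 lower. Over all genes tested 20.9% were higher and 21.8% lower. Positions are from GENCODE release 21 for mouse (GRCm38), in which 99.6% of symbols were found. Figures used Python 3.11.15 with pandas 2.3.3, NumPy 2.4.6, SciPy 1.17.1 and matplotlib 3.10.9.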

Additional observations from a re-analysis of the deposited data

How the results depend on the processing

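The log2 fold changes of Ccr9 (-5.02 to -4.52), Cxcr3 (-2.72 to -2.34), Xcr1 (-1.84 to -1.43), Ccr1 (1.69 to 2.11) and Ccr7 (1.31 to 1.75) kept direction and call in all 18 alternatives. With libraries scaled to total counts, 1283 genes were higher and 4817 lower, against 2481 and 2578 (21% of calls higher against 49%). The log2 fold change was then -0.19 for Ccr2, -0.15 for Cxcr4 and -0.31 for Cx3cr1, the last now called. It also left 1 other chemoattractant receptor higher and 4 lower, 0 signalling genes higher and 7 desensitisation genes lower. Without ribosomal RNA in the totals Ccr2 was at -0.011, 5 desensitisation genes were lower and 38.9% of calls were higher. Of the other chemokine receptors, 1 higher and 1 lower, a mean of at least 30 left 0 higher and 0 lower, since none was then tested, and no filter gave 2 lower. The geometric mean of the markers turned the ratio of Ccr2 to 0.30 and of Cx3cr1 to 0.19. The difference for Cxcr3 was then -0.42, against -0.77 with the marker sum. Leaving out each library gave -0.17 to 0.066 for Cx3cr1, 0 to 1 other chemokine receptors higher (0 without midkine replicate 1) and 1 to 2 signalling genes higher. Signalling genes lower were then 8 to 10, and were 7 with no variance trend. The cause of these changes was not tested. With the replicate block 2519 genes were higher and 2641 lower. Same-numbered libraries did not deviate together (correlations -0.0097, 0.029 and -0.058), so the numbers were not taken as pairs, and the block changed no call of the 8 receptors. Depth limits Ccr9 and Ccr3 in midkine libraries, which rest on 60 and 4 reads.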
